A study of Mus musculus with 47 samples.

Results

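Lysozymes and macrophage genes were followed through RNA-seq of liver and spermatozoa from male mice descended from Scml2-KO or wild-type males. The members were 10 genes, chosen by name from the 23416 genes with a unique symbol in the count tables, and all 10 were present: Lyz1, Lyz2, Cd68, C1qa, C1qb, C1qc, Csf1r, Ptprc, Cd74 and Tyrobp. The choice rested on values of these same libraries: Lyz1 was at 0 in KO-F1 spermatozoa and high in KO-F2 spermatozoa. The level of Lyz1 in spermatozoa and all differences between KO-F2 and KO-F1 spermatozoa are therefore given as a description without a test. Lyz1, Lyz2 and Cd74 are also on the list of differing genes that the study made from the same KO-F2 libraries, so their direction there is not independent evidence.

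Scml2 is an X-linked gene for a germline Polycomb protein, so sons of Scml2-KO males inherit no paternal copy and carry the wild-type allele of the mother. Their own Scml2 level therefore gives no check of the labels. Ctrl-F1 and KO-F1 males came from intracytoplasmic sperm injection (ICSI) with testicular sperm of wild-type and Scml2-KO males, on the background named BDF2 in the labels. KO-F2 males, on the background named BDF3, came from natural mating of KO-F1 males with C57BL/6 females, and all males were 8 to 12 weeks old. There were 2 libraries in each of 5 groups: Ctrl-F1 liver, KO-F1 liver, Ctrl-F1 spermatozoa, KO-F1 spermatozoa and KO-F2 spermatozoa. The control for KO-F2 was Ctrl-F1, a group of another generation, background and mode of conception, and the labels place both KO-F2 libraries on 1 sequencing run and name none for F1 spermatozoa, so these features cannot be told apart from the group. Whether each library came from a separate male is not given in the labels, and p-values measure the spread between 2 libraries, which may be technical.

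Lysozyme is an enzyme that cleaves the peptidoglycan of bacterial cell walls. The mouse has a duplicated gene: Lyz2 is the form of macrophages and other myeloid cells, while Lyz1 is best known from Paneth cells of the intestine. Macrophages depend on the receptor Csf1r, are the main source of the complement component C1q, carry the lysosomal glycoprotein Cd68 and signal through the adaptor Tyrobp. Cd74 is the invariant chain of MHC class II molecules and is shared by macrophages, dendritic cells and B cells, and Ptprc (CD45) is a phosphatase of all nucleated blood cells. Liver holds resident macrophages, the Kupffer cells, while a mature spermatozoon is not a known source of these transcripts.

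Values are deposited read counts per gene, given here as counts or as CPM, the count divided by the library total and scaled to a common total. Liver libraries held 11339729 to 14278900 counts, Ctrl-F1 and KO-F1 spermatozoa 1503733 to 2778171, and KO-F2 spermatozoa 8384266 and 11462105. A level of 3 counts was taken as the floor of detection, which corresponded to at most 0.265 CPM in liver, 2.00 CPM in F1 spermatozoa and 0.358 CPM in KO-F2 spermatozoa. The ribosomal precursor gene Rn45s took 0.636% to 1.59% of liver counts and 3.52% to 28.7% of sperm counts. The part of depth and of Rn45s in the results was not tested, beyond the fits on thinned counts given below. In bulk RNA, fewer cells of a type and less RNA per cell cannot be told apart.

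Lyz1 and Lyz2 lie side by side on chromosome 10 of GRCm38, in the same orientation on the minus strand, at chr10:117287795-117292868 and chr10:117277541-117282272, with 5522 bases between them. Each has 4 exons. Exon 2, which is all coding, is shown because it is the part in which the genes are closest while still distinguishable. It spans chr10:117291029-117291193 in Lyz1 and chr10:117280641-117280805 in Lyz2, in each case 165 bases on the minus strand. The sequences are from RefSeq on GRCm38.p6, 5′ to 3′, with capitals at the 6 bases that differ.
Lyz1 exon 2: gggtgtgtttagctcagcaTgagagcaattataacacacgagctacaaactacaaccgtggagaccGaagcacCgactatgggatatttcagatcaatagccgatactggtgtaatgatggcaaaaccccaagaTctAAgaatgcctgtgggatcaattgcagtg
Lyz2 exon 2: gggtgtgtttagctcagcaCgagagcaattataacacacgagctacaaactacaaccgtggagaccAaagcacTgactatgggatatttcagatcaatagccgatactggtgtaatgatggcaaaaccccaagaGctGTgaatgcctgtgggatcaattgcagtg
Exon 3 was identical in both over its 79 bases, and exon 1 differed at 14 of 166 bases. Of the 1191 windows of 75 bases, the read length, along the Lyz1 mRNA, 44 (3.69%) occurred unchanged in the Lyz2 mRNA, and 474 (39.8%) occurred there with at most 2 mismatches. Reads could therefore be divided unevenly between both genes by the alignment, and the Lyz1 share below is uncertain to that extent.

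The 250 bases before each start site are shown because both genes were compared across the same libraries. They span chr10:117292869-117293118 for Lyz1 and chr10:117282273-117282522 for Lyz2 on the minus strand (RefSeq, GRCm38.p6). Capitals mark AGGAAGT, read on either strand, a core of binding sites for ETS-family factors such as Spi1; the motif was chosen after the sequences had been seen.
Lyz1 upstream: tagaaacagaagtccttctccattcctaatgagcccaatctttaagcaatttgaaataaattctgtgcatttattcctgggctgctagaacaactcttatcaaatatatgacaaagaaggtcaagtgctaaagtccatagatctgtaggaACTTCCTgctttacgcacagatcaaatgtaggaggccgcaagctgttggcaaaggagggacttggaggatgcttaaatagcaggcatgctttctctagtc
Lyz2 upstream: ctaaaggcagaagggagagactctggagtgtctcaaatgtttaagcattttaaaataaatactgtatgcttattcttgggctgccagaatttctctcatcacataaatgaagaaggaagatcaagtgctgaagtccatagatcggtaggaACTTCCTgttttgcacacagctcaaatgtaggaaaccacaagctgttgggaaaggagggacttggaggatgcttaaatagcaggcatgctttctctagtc
Without gaps, the sequences were identical at 152 of 250 bases (60.8%), and at 92 of the 100 bases nearest to the start site. The match began 100 bases before the start in both genes. Of all 32851 promoter windows of this length, 7.69% held the motif on either strand. Among the other members with an entry on the same list, C1qb, C1qc and Ptprc held a match and Cd68 held none, and these matches describe the letters alone.

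Lyz1 was scarcely detected outside KO-F2 spermatozoa. It had 2 counts in each Ctrl-F1 liver library and 3 in each KO-F1 liver library, at or under the floor. In Ctrl-F1 spermatozoa it had 0 counts in replicate 1 and 27 counts in replicate 2, and in KO-F1 spermatozoa it had 0 counts in both replicates. In KO-F2 spermatozoa it had 1534 counts in replicate 1 and 971 counts in replicate 2. The groups thus ordered themselves with KO-F2 spermatozoa above all other libraries, whereas Ctrl-F1 and KO-F1 spermatozoa overlapped at 0.

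In CPM, Lyz1 was 134 and 116 in KO-F2 spermatozoa against 0 and 18.0 in Ctrl-F1 spermatozoa, a ratio of group means of 13.9. The only Lyz1 reads of the F1 spermatozoa were those of Ctrl-F1 replicate 2, the smallest of the 10 libraries. A count of 0 in KO-F1 spermatozoa allows up to 1.08 CPM in replicate 1 and 1.44 CPM in replicate 2. Against that floor of 3 counts per library, Lyz1 was at least 99.1-fold higher in KO-F2 than in KO-F1 spermatozoa.

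Lyz2 was present in every library. Its counts were 362 and 503 in the Ctrl-F1 and 275 and 451 in the KO-F1 liver libraries. Among sperm libraries its counts were 116 and 404 for Ctrl-F1, 273 and 378 for KO-F1, and 21877 and 26974 for KO-F2. As CPM, the KO-F2 libraries were at 1909 and 3217, against 47.8 and 269 for Ctrl-F1 and 98.3 and 181 for KO-F1 spermatozoa, and against 22.5 to 39.8 in liver. The 2 KO-F2 libraries stood above all 8 others, the F1 sperm groups overlapped each other, and so did the liver groups.

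The share of Lyz1 in the summed counts of both lysozymes differed between libraries. It was 0.396% to 1.08% in the 4 liver libraries, with 95% Wilson intervals that reached from 0.109% to 3.12%. It was 6.55% (95% Wilson interval 6.24% to 6.88%) in KO-F2 replicate 1 and 3.47% (3.27% to 3.70%) in KO-F2 replicate 2. In Ctrl-F1 spermatozoa it was 0% (0% to 3.21%) in replicate 1 and 6.26% (4.34% to 8.96%) in replicate 2, and in KO-F1 spermatozoa it was 0% with upper limits of 1.39% and 1.01%. The intervals cover counting error only, since the reads carry no molecular identifiers. Summed over both replicates, the share was 4.88% in KO-F2 and 4.94% in Ctrl-F1 spermatozoa.

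**Figure D1:**
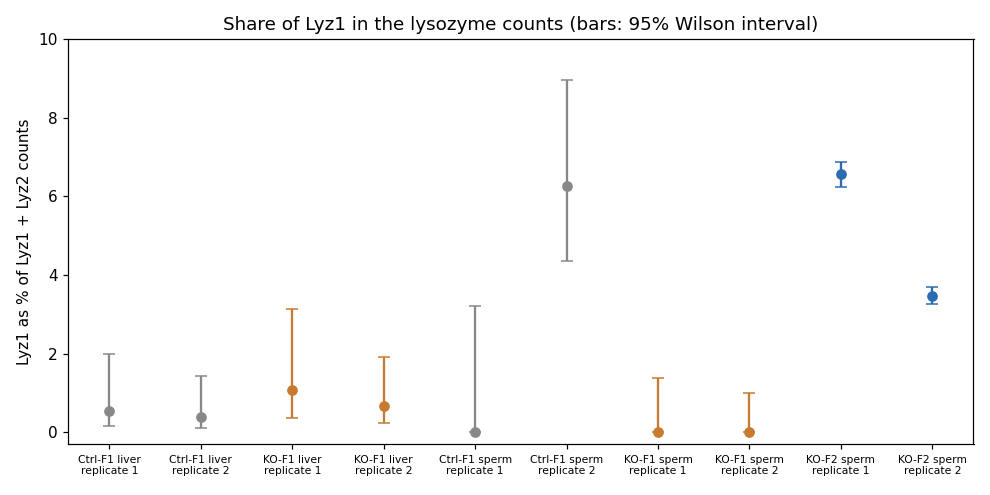
Share of Lyz1 in the counts of Lyz1 and Lyz2 (y axis, percent) in each of the 10 libraries (x axis), with 95% Wilson intervals. The liver libraries are at or below 1.08%, both KO-F2 sperm libraries are above 3%, and Ctrl-F1 spermatozoa hold 1 library at 0% and 1 at 6.26%.

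Other genes of the lysozyme family had low levels in spermatozoa. Lyzl1, Lyzl4, Lyzl6, Spaca3 and Spaca5, lysozyme-like genes of the male germ line, and the goose-type lysozymes Lyg1 and Lyg2 had 0 counts in all 4 liver libraries. Lyzl4 was at 31.7 and 17.3 CPM in Ctrl-F1, 9.72 and 8.63 CPM in KO-F1, and 20.3 and 16.5 CPM in KO-F2 spermatozoa. Spaca3, an acrosomal protein, was at 18.1 and 2.66 CPM in Ctrl-F1, 3.60 and 1.44 CPM in KO-F1, and 16.2 and 16.3 CPM in KO-F2 spermatozoa. Lyzl1 ranged from 1.80 to 10.3 CPM and Lyzl6 from 0 to 13.4 CPM over the 6 sperm libraries. Spaca5, Lyg1 and Lyg2 stayed at or below 4.94 CPM. Spaca5, Lyg1 and Lyg2 were at or under the floor in 1 or both Ctrl-F1 libraries. For the other 4 genes the KO-F2 libraries did not both stand above both controls.

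**Figure D2:**
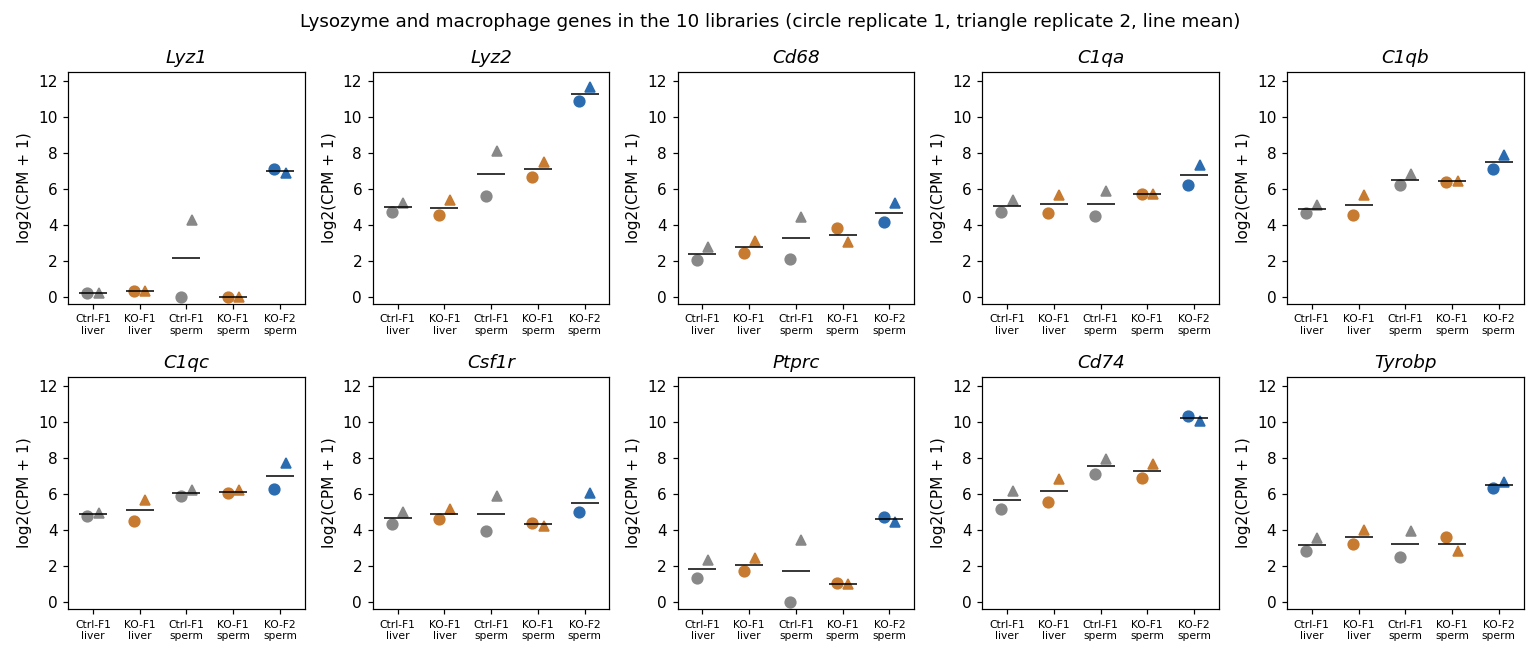
Level of each of the 10 members as log2(CPM + 1) (y axis) in the 5 groups (x axis); circles are replicate 1, triangles replicate 2 and lines the mean of 2 libraries. Lyz1, Lyz2, Ptprc, Cd74 and Tyrobp stand apart in KO-F2 spermatozoa, while Csf1r overlaps between KO-F2 and Ctrl-F1 spermatozoa.

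KO-F2 and Ctrl-F1 spermatozoa were compared to ask whether the offspring of KO-F1 males differ from controls in sperm RNA. Beside Lyz1 and Lyz2, the antigen presentation gene Cd74, the adaptor Tyrobp and the leukocyte phosphatase Ptprc were several-fold higher in KO-F2 spermatozoa. The C1q genes were higher by a factor of 1.97 to 2.93 in the group means, and Csf1r and Cd68 overlapped between the groups. With edgeR's quasi-likelihood test 0 of the 9 members other than Lyz1 met the thresholds for a call (2-fold or more, with the adjusted p below 0.01), and 0% of the 13149 genes tested were called. There, 3 members (Lyz2, Cd74 and Tyrobp) and 1960 of all genes had an unadjusted p under 0.05. DESeq2 called Lyz2, Cd74 and Tyrobp, all higher, and called higher 1.15% of the 12963 genes with an adjusted p. The edgeR likelihood ratio test called the same 3 members among 2.93% of genes called higher, and edgeR's bias-adjusted quasi-likelihood test called 0 members among 0.0228%. An exact permutation of 2 against 2 libraries cannot go below a two-sided p of 0.333.

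Lyz2 was 16.2-fold higher in the mean CPM of KO-F2 than of Ctrl-F1 spermatozoa, with a fitted log2 fold change of 3.78 ± 0.90 (SE) and an edgeR adjusted p of 0.203. The DESeq2 adjusted p was 3.00e-05. Both KO-F2 libraries exceeded both controls.

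Cd74 counts were 337 and 368 for Ctrl-F1, against 14683 and 9057 for KO-F2 spermatozoa, or 139 and 245 against 1281 and 1080 CPM. The groups did not overlap. The fitted log2 fold change was 2.43 ± 0.44 (SE), with an adjusted p of 0.149 by edgeR and of 1.68e-05 by DESeq2.

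Tyrobp, which couples activating receptors to the kinase Syk, was counted 11 and 22 times for Ctrl-F1, against 914 and 854 times for KO-F2 spermatozoa, or 4.53 and 14.6 against 79.7 and 102 CPM. The groups did not overlap. The fitted log2 fold change was 3.10 ± 0.64 (SE), with an adjusted p of 0.170 by edgeR and of 0.000627 by DESeq2.

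Ptprc counts were 0 and 15 for Ctrl-F1, against 289 and 175 for KO-F2 spermatozoa, or 0 and 9.98 against 25.2 and 20.9 CPM. The KO-F2 libraries were close to each other, and the controls were far apart. The fitted log2 fold change was 2.08 ± 1.35 (SE) with an edgeR adjusted p of 0.546.

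The C1q genes encode the A, B and C chains of the first complement component and lie within chr4:136880126-136898844, in the order C1qb, C1qc and C1qa. C1qa was at 21.4 and 57.2 CPM in Ctrl-F1 and 72.8 and 158 CPM in KO-F2 spermatozoa. C1qb was at 71.7 and 113 CPM against 134 and 231 CPM, and C1qc was at 57.7 and 72.5 CPM against 77.9 and 207 CPM. None of the chains overlapped between the groups, though the lower KO-F2 value of C1qc was near the higher control. The fitted log2 fold changes were 1.35 ± 0.64, 0.79 ± 0.44 and 0.95 ± 0.52 (SE) for C1qa, C1qb and C1qc, with edgeR adjusted p values of 0.397, 0.472 and 0.465.

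Csf1r, on chromosome 18, was counted 35 and 86 times for Ctrl-F1, against 354 and 542 times for KO-F2 spermatozoa, or 14.4 and 57.2 against 30.9 and 64.6 CPM. Cd68 was at 3.30 and 20.6 against 16.8 and 35.5 CPM. Both genes overlapped between the groups, with fitted log2 fold changes of 0.21 ± 0.75 (SE) for Csf1r and 0.94 ± 0.92 (SE) for Cd68 and edgeR adjusted p values of 0.942 and 0.712. A noncoding gene overlaps Csf1r on the opposite strand, and the strand setting of the counting is not given in the sources used here.

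Of the 9 members other than Lyz1, 7 had both KO-F2 libraries above both Ctrl-F1 libraries in CPM, against 35% of all genes with a count. The median fitted log2 fold change of the 9 members other than Lyz1 was 1.35, against 0.07 for all genes tested. Ctrl-F1 replicate 2 was above replicate 1 for all 10 members, and leaving it out raised the count of members called by edgeR to 4 (Lyz2, Ptprc, Cd74 and Tyrobp), in a fit that called 0.992% of all genes higher. Leaving out KO-F2 replicate 1 or replicate 2 gave 1 member (Lyz2), with 0.498% and 0.236% of all genes called higher, and leaving out Ctrl-F1 replicate 1 gave 0, with 0.295%; in these fits the lone library is assumed to vary like the others. When all 4 libraries were thinned to the smallest total, the log2 fold changes were 3.74 for Lyz2, 2.35 for Cd74 and 2.96 for Tyrobp, with 0 members called.

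**Figure D3:**
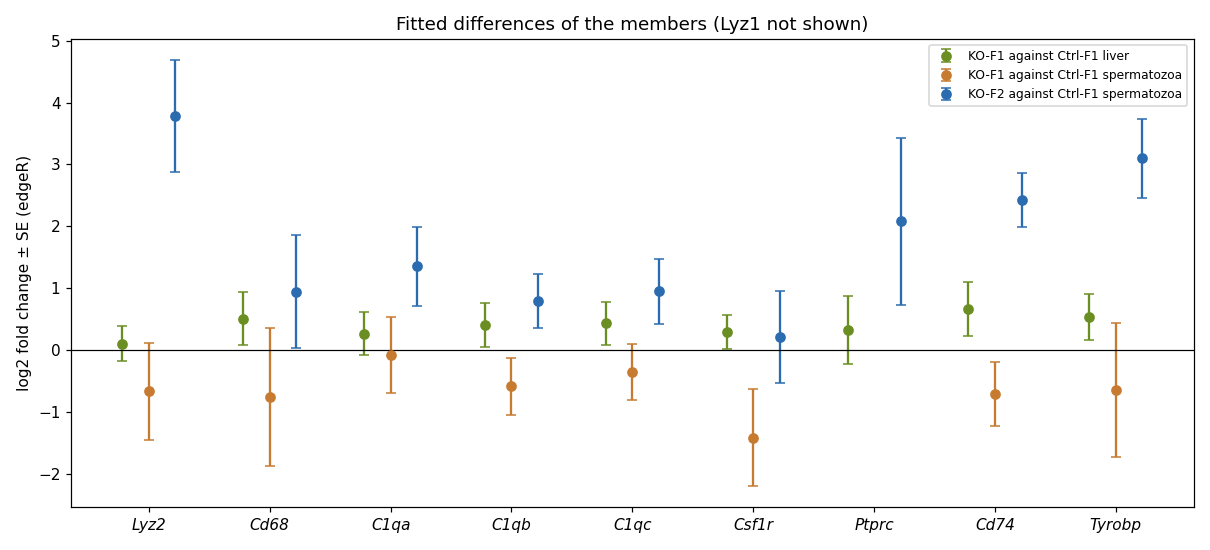
Fitted log2 fold changes (y axis; edgeR, bars are 1 SE) of the 9 members other than Lyz1 (x axis) in 3 comparisons of 2 against 2 libraries; Ptprc was not tested in KO-F1 spermatozoa because of low counts. In KO-F2 spermatozoa Lyz2, Tyrobp and Cd74 lie at 3.78, 3.10 and 2.43, whereas Csf1r lies at 0.21.

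The ratios between members were compared within each library. For each Csf1r count, Lyz2 had 61.8 and 49.8 counts in KO-F2 spermatozoa, against 3.31 to 10.2 in F1 spermatozoa and 0.975 to 1.34 in liver. Tyrobp had 2.58 and 1.58 counts per Csf1r count in KO-F2 spermatozoa, against 0.256 to 0.554 in F1 spermatozoa and 0.317 to 0.419 in liver. Cd74 had 41.5 and 16.7 counts per Csf1r count in KO-F2 spermatozoa, 4.28 to 11.6 in F1 spermatozoa and 1.84 to 3.16 in liver. These ratios to Csf1r in KO-F2 spermatozoa were outside the range of all other libraries. The choice of denominator matters: per Ptprc count, Tyrobp was at 3.16 and 4.88 in KO-F2 spermatozoa and at 2.65 to 3.91 in liver, which overlap. Lyz2 was at 75.7 and 154 per Ptprc count in KO-F2 spermatozoa, 26.9 in Ctrl-F1 replicate 2 and 8.82 to 16.5 in liver, and the other F1 sperm libraries had too few Ptprc counts for a ratio.

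The C1q genes kept another relation. C1qa had 2.36 and 2.44 counts per Csf1r count in KO-F2 spermatozoa, within the range of 1.00 to 2.92 in F1 spermatozoa, and C1qb had 4.32 and 3.57, within the range of 1.98 to 4.97. C1qc had 2.52 and 3.20, within 1.27 to 4.14. In liver each chain had 0.947 to 1.42 counts per Csf1r count, so that the chains relative to Csf1r were lower in liver than in most sperm libraries. Tissue and library kit differ together here and cannot be told apart.

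**Figure D4:**
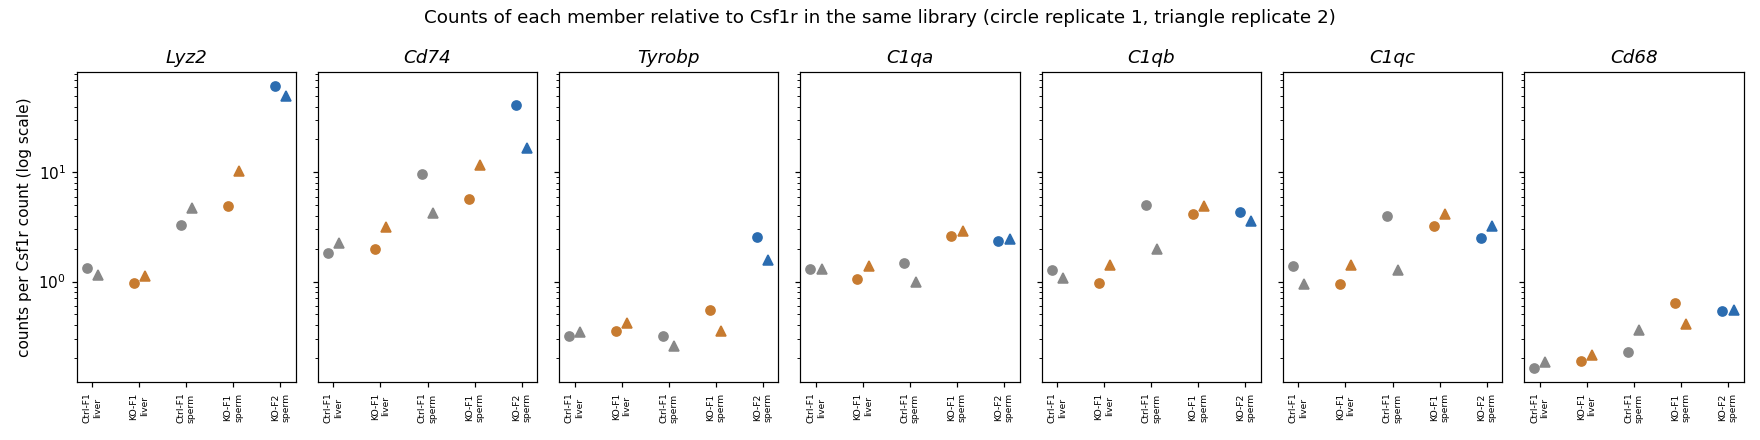
Counts of 7 members for each count of Csf1r in the same library (y axis, log scale) in the 5 groups (x axis); circles are replicate 1 and triangles replicate 2. Lyz2, Cd74 and Tyrobp are higher in KO-F2 spermatozoa than in all other libraries, and the 3 C1q genes and Cd68 of KO-F2 fall among the F1 sperm libraries.

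Per length of exon sequence (RPKM, the CPM value divided by the exon length in kilobases), Cd74 was the most abundant member in all 4 liver libraries, at 24.7 to 79.0 RPKM, and Lyz2 was at 21.3 to 37.6 RPKM. Lyz1 was the least abundant in liver, at 0.111 to 0.209 RPKM. In both KO-F2 libraries Lyz2 led at 1806 and 3044 RPKM, Cd74 followed at 905 and 763 RPKM, and Ptprc was lowest at 4.29 and 3.55 RPKM. Lyz1 was at 106 and 91.6 RPKM there, above Csf1r at 7.97 and 16.7 RPKM. All 10 members together took 0.0165% to 0.0363% of the counts in liver, 0.0360% to 0.0876% in F1 spermatozoa, and for KO-F2 0.376% and 0.523%.

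The KO-F2 libraries also differed from each other. Lyz2, Cd68, C1qa, C1qb, C1qc, Csf1r and Tyrobp were higher in replicate 2, by 1.28-fold (Tyrobp) to 2.66-fold (C1qc) in CPM. Lyz1, Cd74 and Ptprc were lower in replicate 2, at 0.865, 0.843 and 0.828 of the CPM of replicate 1.

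KO-F1 and Ctrl-F1 spermatozoa were compared to ask whether sons of Scml2-KO males differ from controls in sperm RNA; these are the same Ctrl-F1 libraries that served KO-F2. No member separated the groups: 0 of 10 members had both KO-F1 libraries outside the range of Ctrl-F1, against 44.7% of all genes with a count. With edgeR 0% of 10785 genes and 0 members were called, and 2105 genes and 0 of the 8 members tested had an unadjusted p under 0.05. DESeq2, which gave an adjusted p for 6 members, called 0 of them and 7.8% of the 5000 genes with an adjusted p. The edgeR likelihood ratio test called 0 members and 3.02% of all genes, and the bias-adjusted test called 0 of either.

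Lyz2 was at 98.3 and 181 CPM in KO-F1 spermatozoa, between the 47.8 and 269 CPM of the controls, with a log2 fold change of -0.67 ± 0.78 (SE) and an edgeR adjusted p of 0.706. Cd74 was at 116 and 205 CPM against 139 and 245 CPM, with -0.71 ± 0.52 (SE) and an edgeR adjusted p of 0.503. Csf1r was at 20.2 and 17.7 CPM against 14.4 and 57.2 CPM, with -1.41 ± 0.78 (SE) and an edgeR adjusted p of 0.372. Ptprc had 3 and 2 counts, too few for the test, against 0 and 15 in the controls.

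The sign of these differences depended on the scaling. The fitted values of all 8 members tested were below 0 with TMM scaling, where the median of all genes was at 0.02. With library totals alone C1qa and C1qc turned to 0.42 and 0.10, and the median of all genes moved to 0.46. Scaled to genes of late spermatogenesis, all 8 turned positive, while the median of all genes moved to 1.76. The summed CPM of the 26 late spermatogenesis genes was 47917 and 62803 in KO-F1 spermatozoa and 126999 and 142970 in Ctrl-F1 spermatozoa. Its part in the differences was not tested beyond these scalings.

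In liver the members were compared between KO-F1 and Ctrl-F1 as the tissue with resident macrophages of its own. The hepatocyte gene Alb was at 78734 to 85073 CPM in the 4 libraries, and Clec4f, which among tissue macrophages is typical of Kupffer cells, was at 39.8 and 73.9 CPM in Ctrl-F1 and at 43.5 and 67.3 CPM in KO-F1. In KO-F1 against Ctrl-F1 liver 0 of the 9 members tested and 0% of 11505 genes were called by edgeR, with 1083 genes and 0 members at an unadjusted p under 0.05. DESeq2, which gave an adjusted p for 7 members, called 0 of them and 0.274% of the 7306 genes with an adjusted p. The edgeR likelihood ratio test called 0 members and 0.243% of all genes, and the bias-adjusted test called 0 of either. Lyz1 was too low for the edgeR test.

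Cd74 was at 35.0 and 71.2 CPM in Ctrl-F1 liver and at 45.6 and 112 CPM in KO-F1 liver, the largest fitted difference among the members in this tissue (log2 fold change 0.66 ± 0.44, SE, edgeR adjusted p 0.654). Lyz2 was at 25.4 and 35.9 CPM against 22.5 and 39.8 CPM (0.11 ± 0.29, SE, edgeR adjusted p 0.933). C1qa was at 24.7 and 40.5 CPM against 24.5 and 49.5 CPM, and Csf1r at 19.0 and 31.3 CPM against 23.1 and 35.4 CPM. The groups overlapped for all members except Lyz1, whose 2 counts against 3 were at the floor, while 36.7% of all genes with a count did not overlap.

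All 9 fitted values in liver were above 0, with a median of 0.41 against -0.01 for all genes. Replicate 2 was above replicate 1 for all 10 members in both liver groups. Without KO-F1 liver replicate 2, the values of Lyz2, C1qa, C1qb, C1qc, Csf1r, Ptprc and Cd74 turned negative, from -0.08 for Csf1r to -0.41 for Lyz2. Without Ctrl-F1 liver replicate 1, Lyz2, C1qa and Ptprc turned negative, at -0.07, -0.0003 and -0.17.

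Whether the KO-F1 difference of a member was another in spermatozoa than in liver was tested over the 8 F1 libraries. With edgeR's interaction test 0 of 9 members and 0% of 14415 genes passed, with 2068 genes and 0 members at an unadjusted p under 0.05, and DESeq2 called 267 genes. Nothing is read about the members from this count. The edgeR adjusted p values of the members lay between 0.397 (Csf1r) and 0.951 (C1qa). The difference of the log2 fold changes, spermatozoa less liver, was -0.83 ± 1.01 (SE) for Lyz2 and -1.46 ± 0.79 (SE) for Cd74.

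KO-F2 and KO-F1 spermatozoa gave the contrast that the choice of members used. All 10 members were higher in both KO-F2 libraries than in both KO-F1 libraries, as were 31.5% of all genes with a count, and nothing is read from this count. In CPM the ratio of the means was 18.3 for Lyz2, 10.4 for Tyrobp, 7.35 for Cd74, and 2.05 to 2.60 for the C1q genes, Csf1r and Cd68. Ptprc had 289 and 175 counts against 3 and 2, a ratio of 22.7 with a 95% counting interval of 9.68 to 70.4.

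The genes whose pattern over the 6 sperm libraries was closest to that of Lyz1 were Tpsb2, Prg4, Mpeg1, Lyz2 and Ccl24. Likeness was the root mean square difference of log2(CPM + 1) values after subtraction of each gene's mean, over 13516 genes, and it was 1.11 for Tpsb2 and 1.27 for Ccl24. These genes were picked on their values and have no test. Tpsb2, a mast cell tryptase, had 5, 6, 1 and 1 counts in the F1 sperm libraries and 2234 and 750 in KO-F2. Prg4, lubricin, had 0 to 7 counts in F1 and 1010 and 1955 in KO-F2 spermatozoa, and Mpeg1, the macrophage perforin, had 0 to 22 counts in F1 and 187 and 351 in KO-F2. The chemokine Ccl24 had 0 to 24 counts in F1 and 474 and 442 in KO-F2 spermatozoa. Of the other members, Ptprc ranked 6, Tyrobp 25 and Cd74 65. Cd68 ranked 589, Csf1r 968, C1qa 1045, C1qb 1489 and C1qc 2162.

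Genes that work with the members were counted from lists chosen by function, some of which contain members. The lists were chosen with earlier results of these data known, so their counts are a description and not independent evidence. A gene at or near 0 in the controls could enter the test through its KO-F2 libraries alone, so its direction was fixed by the filter. Both limits hold for the cell type lists below as well. In KO-F2 against Ctrl-F1 spermatozoa edgeR called 0 genes of any of these lists, where it called 0% of all genes, so the counts below are of fitted direction and of unadjusted p under 0.05. Over all genes tested, 53% had a positive value, 9.07% were higher with an unadjusted p under 0.05 and 5.83% were lower with one, and the median log2 fold change was 0.07. Of 11 genes of MHC class II presentation, all 11 had positive values and 9 an unadjusted p under 0.05, with a median log2 fold change of 2.52. DESeq2 called 4, where it called higher 1.15% of the 12963 genes with an adjusted p. The member Cd74 is in each of these counts. The class II chains H2-Aa and H2-Eb1 were at 31.7 and 55.2, and at 24.7 and 41.9 CPM in Ctrl-F1, and at 329 and 238, and at 334 and 166 CPM in KO-F2 spermatozoa. H2-Ab1 was at 72.5 and 148 CPM against 329 and 237 CPM. Without Cd74 the list summed to 145 to 287 CPM in Ctrl-F1, 162 to 228 CPM in KO-F1, and 1165 and 826 CPM in KO-F2 spermatozoa.

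Of the 14 receptors and kinases around Tyrobp, 10 were tested, all 10 were positive, and 6 had an unadjusted p under 0.05. Tyrobp itself is in these counts. Genes at or near 0 in both controls, such as Syk, were tested through their KO-F2 counts, so their direction is no evidence. The median was 2.21, or 1.74 with the 2 genes at 0 in both controls set at their lower bound. Syk, the kinase that Tyrobp recruits, was at 2.47 and 0 CPM in Ctrl-F1 and at 46.9 and 47.2 CPM in KO-F2 spermatozoa. Fcer1g, the related adaptor of Fc receptors, was at 11.9 and 11.3 CPM against 16.2 and 42.2 CPM, and the receptor Trem2 was at 13.6 and 8.65 CPM against 6.54 and 54.1 CPM.

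Of the 7 genes around Csf1r, 5 were tested, 4 were positive and 0 had an unadjusted p under 0.05, with a median of 0.75. Spi1, the myeloid transcription factor, was at 10.7 and 11.3 CPM against 21.3 and 28.1 CPM. The ligand Csf1 was at 15.2 and 10.6 CPM against 5.32 and 7.39 CPM. Of the 11 genes of the classical complement pathway, 9 were tested, 8 were positive and 2 had an unadjusted p under 0.05, with a median of 0.95. Without the C1q genes the list summed to 143 to 358 CPM in Ctrl-F1 and 153 to 344 CPM in KO-F2 spermatozoa, with the inhibitor Serping1 leading, against 7373 to 9089 CPM in liver, the main source of serum complement.

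Markers of the cells that the samples could hold were compared in the same libraries. Of 20 resident macrophage genes, 18 were tested, 14 were positive and 11 had an unadjusted p under 0.05, with a median of 2.50. The list is led by Cd52, an antigen that the epididymal epithelium also makes and passes to sperm, at 2387 to 30705 CPM in F1 and 1411 to 3030 CPM in KO-F2 spermatozoa. Without Cd52, left out after its values were seen, the list summed to 239 to 243 CPM in Ctrl-F1, 140 to 277 CPM in KO-F1, and 817 to 1394 CPM in KO-F2 spermatozoa. Cd14, a receptor for lipopolysaccharide, was at 8.65 and 16.6 CPM in Ctrl-F1 and 149 and 248 CPM in KO-F2. Laptm5, a lysosomal protein of blood cells, was at 30.9 and 32.6 CPM against 157 and 333 CPM. Aif1, also among the 4 highest of the list, differed less. It was at 104 and 87.3 CPM in KO-F2, with a mean of 88.1 CPM over the 4 libraries compared. The fitted values of 4 genes of the list were negative.

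Kupffer cell genes were divided. Clec4f had 0 counts in all 6 sperm libraries, which allows up to 2.00 CPM in the smallest. The iron exporter Slc40a1, at 111 to 131 CPM in liver, was at 0.523 and 1.43 CPM in KO-F2 spermatozoa. Against Ctrl-F1 spermatozoa its log2 fold change was -3.15 ± 1.84 (SE) by DESeq2, and edgeR did not test it. By edgeR, Folr2 was also lower there, at -1.15 ± 0.82 (SE), and Cd163 was at 0.29 ± 1.79 (SE). Cd5l, Vsig4 and Marco had 0 counts in all 4 F1 sperm libraries and were at 37.1 and 105, 7.94 and 49.0, and 2.97 and 5.37 CPM in KO-F2 spermatozoa. Timd4 had 1 count among the 4 F1 sperm libraries and 126 and 333 counts in KO-F2. The list as a whole summed to 5.04 to 23.5 CPM in F1 spermatozoa, and for KO-F2 to 62.2 and 214 CPM.

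The B cell list of 6 genes summed to 10.3 and 0.665 CPM in Ctrl-F1, 0.360 and 3.84 CPM in KO-F1, and 457 and 318 CPM in KO-F2 spermatozoa. Cd79a and Cd79b, chains of the B cell receptor, were at 0 to 3.36 CPM in the 4 F1 sperm libraries, at 157 and 101 and at 167 and 130 CPM in KO-F2. All 4 genes tested had an unadjusted p under 0.05, and DESeq2 called 3 of 6. The mast cell list of 8 genes summed to 24.3 and 27.3 CPM in Ctrl-F1 spermatozoa, to less in both KO-F1 libraries, and to 452 and 222 CPM in KO-F2. DESeq2 called 4 of the 8. With edgeR, 7 of the 8 were positive and 5 were higher with an unadjusted p under 0.05. The protease genes Cma1 and Mcpt4 of this list were at 6.59 and 0.665, and 2.88 and 2.00 CPM in Ctrl-F1, and at 121 and 53.7, and 63.7 and 28.9 CPM in KO-F2. Kit, the 1 gene with a negative value, was at 6.18 and 17.3 CPM in Ctrl-F1 and 7.24 and 3.94 CPM in KO-F2. The B cell and mast cell lists were higher in KO-F2 replicate 1 than in replicate 2, as Cd74, Lyz1 and Ptprc were. This direction was not particular to them. The summed epididymal epithelium list, 8 of 10 T and NK cell genes and 16 of 26 late spermatogenesis genes were also higher in replicate 1.

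The T and NK cell list of 10 genes summed to 21.8 to 21.9 CPM in Ctrl-F1 and 65.0 to 67.4 CPM in KO-F2 spermatozoa. Of 3 genes tested, 3 were positive and 2 had an unadjusted p under 0.05. Cd3d was at 19.0 and 21.9 CPM in Ctrl-F1 and 29.8 and 27.8 CPM in KO-F2. Cd2 was at 2.88 and 0 CPM against 27.5 and 26.8 CPM, and Cd8a was at 0 in KO-F2 replicate 2. The neutrophil list summed to 329 to 581 CPM in Ctrl-F1 and 83.1 to 109 CPM in KO-F2 spermatozoa. It was set by Ltf, lactoferrin, which the epididymis also makes. Ltf was at 576 and 325 CPM in Ctrl-F1 and 104 and 54.4 CPM in KO-F2, and DESeq2 called it lower. Of 3 genes tested by edgeR, 2 were positive and 1 (Ltf) was negative. Without Ltf, left out after its values were seen, the list summed to 4.53 to 4.66 CPM in Ctrl-F1 and 5.84 to 28.7 CPM in KO-F2 spermatozoa. Camp and Ngp were at 0 in all sperm libraries. The epididymal epithelium list of 18 genes summed to 24279 and 8287 CPM in Ctrl-F1, 19502 and 17893 CPM in KO-F1, and 4743 and 2311 CPM in KO-F2 spermatozoa. Of its 15 genes tested, 8 were positive and 7 negative with a median of 0.37, and 1 was higher and 5 were lower with an unadjusted p under 0.05. Crisp1, a secreted protein that coats sperm, led the sum at 18255 and 5448 CPM in Ctrl-F1 and 2856 and 1260.3 CPM in KO-F2 spermatozoa. The late spermatogenesis list summed to 164899 and 164391 CPM in KO-F2, above both controls. Of its 26 genes, 16 were positive and 10 negative with a median of 0.22, and 8 had both KO-F2 libraries above both controls. The part of these cells in the levels of the members was not tested.

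**Figure D5:**
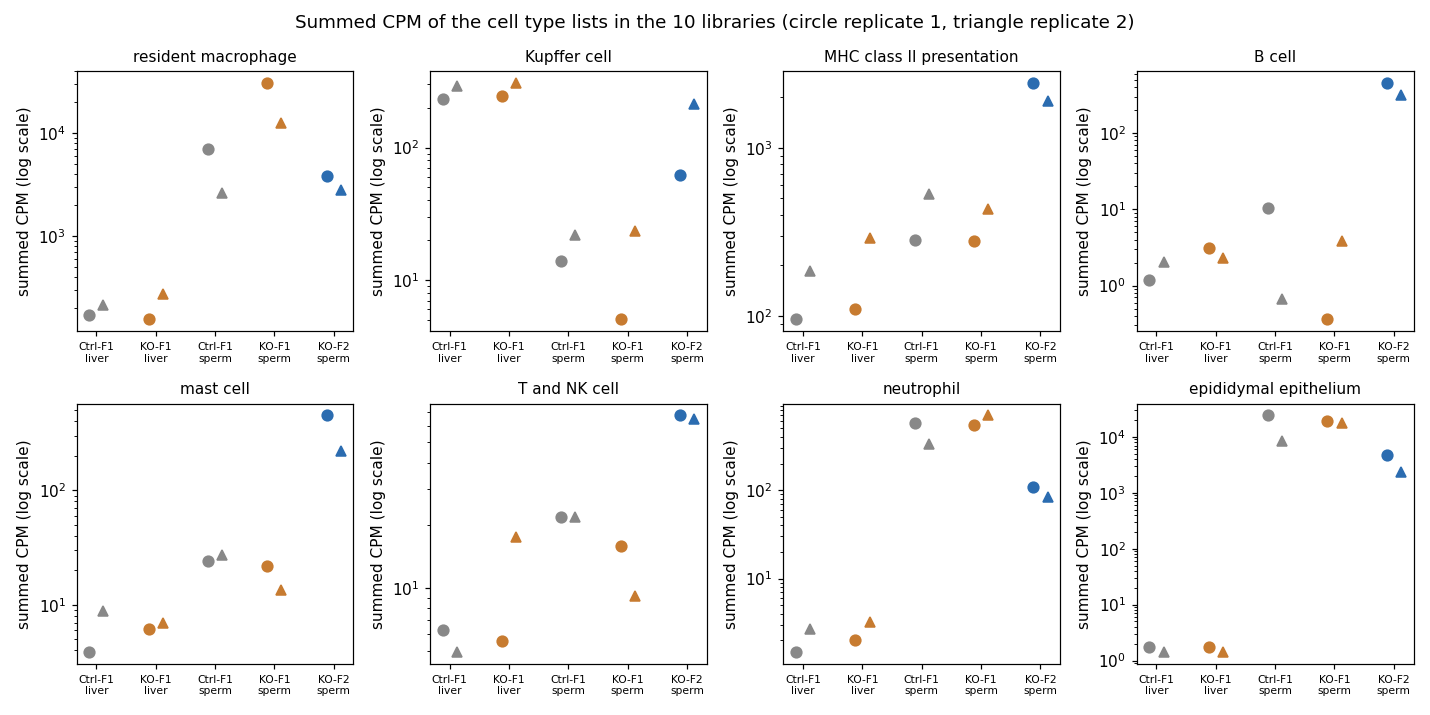
Summed CPM (y axis, log scale) of 8 cell type lists in the 5 groups (x axis); circles are replicate 1 and triangles replicate 2. The B cell, mast cell, T and NK cell and MHC class II lists are highest in both KO-F2 sperm libraries. The epididymal epithelium list is lower there than in F1 spermatozoa. Cd52 and Ltf set the sperm values of the resident macrophage and neutrophil lists.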

How the data were processed

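The authors sequenced poly(A) RNA of liver (TruSeq Stranded mRNA) and total RNA of swim-up motile cauda epididymal sperm, amplified with SMART-Seq v4 (single-end, 75 bp). They aligned reads to GRCm38 with HISAT2 2.1.0 and deposited raw read counts per gene from featureCounts; the annotation and strand setting are not given in the sources used here. The 10 tables were joined by symbol, and 4 lines of 2 repeated symbols were dropped (23416 genes kept). Each comparison of 2 against 2 libraries was fitted over all genes with edgeR 4.0.16 (TMM, filterByExpr, quasi-likelihood F test; R 4.3.3), with Benjamini-Hochberg adjustment, a call needing a 2-fold change with the adjusted p below 0.01, and SE as the absolute log2 fold change divided by the square root of F. DESeq2 1.42.0 was an alternative. The fits were tested on simulated data with 200 genes changed 4-fold. The quasi-likelihood test recovered most changed genes at the spread of the liver libraries. It recovered none at that of KO-F1 or KO-F2 against Ctrl-F1 spermatozoa, so an absence of calls there says little. At the spread of KO-F2 against Ctrl-F1 spermatozoa, DESeq2 called 49 of the changed genes and 10 unchanged ones. For KO-F1 it called 28 and 2, so single DESeq2 calls in spermatozoa are uncertain. RPKM used the union of RefSeq exons (GRCm38.p6). C1s1, C1s2, Spi1 and Adgre1 were matched by older symbols, and Ly6g matched none. The members and lists were chosen with earlier results of these data known; named were all members, the lysozyme family, the at most 4 genes with the highest mean CPM of each other list, and the 5 genes closest to Lyz1. Others (Csf1, Clec4f, Slc40a1, Marco, Cd163 and Kit in spermatozoa, Cd8a, Camp, Ngp and Rn45s) were named after their values were seen. CPM values were computed on library totals. Replicates differed by more than sampling noise in all 5 groups. Same-numbered replicates deviated together with correlations of -0.102 (liver), -0.009 (KO-F1 spermatozoa) and 0.135 (KO-F2 spermatozoa against Ctrl-F1). ChIP-seq and embryo samples were not analysed here.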

Additional observations from a re-analysis of the deposited data

How the results depend on the processing

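With edgeR's quasi-likelihood test 0 genes were called in each comparison. In liver other settings gave 20 (DESeq2), 25 (no filter), 1 (at least 10 counts in every library), 28 (likelihood ratio test) and 4 to 107 genes without 1 library. In KO-F1 spermatozoa they gave 390 (DESeq2), 113 (no filter), 200 (at least 10 counts), 336 (scaled to late spermatogenesis genes, all higher) and 326 (likelihood ratio test) and 0 without 1 library. In KO-F2 spermatozoa they gave 277 (DESeq2), 39 (no filter), 1 (at least 10 counts), 2 (all 3 sperm groups in 1 model), 581 (likelihood ratio test), 5 (bias-adjusted quasi-likelihood test) and 35 to 277 without 1 library. The bias-adjusted and likelihood ratio tests and the crossed pairing were added after the data were seen. Members called in KO-F2 against Ctrl-F1 spermatozoa were 3 with DESeq2 and with the likelihood ratio test and 0 to 4 without 1 library. The cause of these differences was not tested.

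With the replicate number as a block, which the labels do not tie to a shared animal or day, 2 genes were called in liver, 0 in KO-F1 and 362 in KO-F2 spermatozoa, with 3 members (Lyz2, Cd74 and Tyrobp) in the latter; 0 genes were called in liver with the numbers crossed. C1qa in KO-F1 spermatozoa turned to 0.12 under the block.

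Values of members that changed sign in KO-F1 spermatozoa were C1qa 0.42 and C1qc 0.10 (library totals), C1qa 0.019 (at least 10 counts), and, scaled to late spermatogenesis genes, Lyz2 1.13, Cd68 0.97, C1qa 1.68, C1qb 1.18, C1qc 1.40, Csf1r 0.34, Cd74 1.08 and Tyrobp 1.08. Leaving out 1 library gave these ranges where a sign changed. In liver they were -0.41 to 0.50 (Lyz2), -0.37 to 0.73 (C1qa), -0.33 to 0.91 (C1qb), -0.33 to 0.95 (C1qc), -0.082 to 0.65 (Csf1r), -0.24 to 1.12 (Ptprc) and -0.17 to 1.20 (Cd74), lowest without KO-F1 replicate 2, and without Ctrl-F1 replicate 1 Lyz2, C1qa and Ptprc were at -0.07, -0.0003 and -0.17. In KO-F1 spermatozoa they were -1.48 to 1.25 (Lyz2), -1.60 to 1.26 (Cd68), -0.69 to 0.96 (C1qa), -2.15 to 0.072 (Csf1r) and -1.32 to 0.60 (Tyrobp), highest without Ctrl-F1 replicate 2. In KO-F2 spermatozoa Csf1r ranged from -0.52 (without Ctrl-F1 replicate 1) to 1.71, with -0.41 without KO-F2 replicate 2. The Lyz1 share of Ctrl-F1 spermatozoa replicate 1 (0%) became 4.94% when both replicates were summed. No interaction of tissue and father genotype was called for a member by edgeR, with or without the block, or by DESeq2. F1 sperm depth limits genes under 2.00 CPM.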

Other observations

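After the B cell, mast cell and Prg4 values had been seen, 12 genes known from large peritoneal macrophages were looked up, as a list chosen at that point and given without a test: Gata6, Prg4, Icam2, Timd4, Alox15, Selp, F5, Serpinb2, Garnl3, Cxcl13, Ltbp1 and Tgfb2. Prg4 and Timd4 were already known to be higher in KO-F2 spermatozoa when the list was made. The other 10 were also higher in both KO-F2 libraries than in both Ctrl-F1 sperm libraries, as were 35% of all genes with a count. Against both KO-F1 sperm libraries, 11 of the 12, Prg4 and Timd4 included, were higher, as were 31.5% of all genes with a count. The choice of members used that contrast, and nothing is read from this count. The list summed to 33.9 to 54.4 CPM in Ctrl-F1, 55.1 to 57.1 CPM in KO-F1, and 326 to 776 CPM in KO-F2 spermatozoa. Gata6, the transcription factor of these macrophages, was counted 17 and 0 times for Ctrl-F1, 5 and 1 times for KO-F1, and 134 and 185 times for KO-F2. Icam2 had 0 counts in all 4 F1 sperm libraries and 269 and 415 in KO-F2. Alox15, a lipoxygenase, had 43 and 21, 0 and 14, and 741 and 1432 counts in these groups. Such counts are not scaled to depth, which was greater in the KO-F2 than in the F1 sperm libraries. In liver the list summed to 375 to 643 CPM, of which F5, a clotting factor made by hepatocytes, took the most. Several of these genes are also expressed in other cells, and their part in the levels of Lyz1 and Lyz2 was not tested.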
